A study of Mus musculus with 10 samples.

Results

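The genes described here are 8 transcripts of the myelin-forming Schwann cell, Cnp, Drp2, Mbp, Pmp22, Prx, Mag, Egr2 and Mal. They were chosen by name in the deposited count table, where each symbol matched 1 Ensembl gene, out of 40481 genes in all, and all 8 were among the 18401 genes with enough counts to be tested. RNA was sequenced from mouse dorsal root ganglia (DRG), where the cell bodies of sensory neurons sit (strain C57BL/6). The 5 tested libraries came from mice given oxaliplatin, a platinum drug for colorectal cancer that harms sensory nerves, at 10 mg/kg, with ganglia taken after 8 weeks of treatment, and the other 5 from mice given vehicle. What the vehicle was, how often the drug was given and how old the animals were is not stated in the labels. Separate animals are not named for the replicate numbers, and the p-values therefore rest on the spread between these libraries alone, part of which may be technical.

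In a peripheral nerve each myelinating Schwann cell wraps a single segment of a large axon in layers of its own membrane, which insulates the axon and speeds conduction. Compact myelin is held together by a few abundant proteins, while channels of cytoplasm that stay open between the layers, called Cajal bands in the outer part of the sheath, are organised by periaxin and its partner DRP2. The transcription factor EGR2, working with SOX10, switches on most of these genes. In the DRG myelin surrounds the axons of the large-diameter neurons that leave the ganglion, and satellite glia, a related cell type that makes little myelin, wrap the cell bodies. These are bulk libraries, so a change in the number of Schwann cells cannot be told apart from a change in RNA per cell.

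The promoters of the 3 members with a single annotated start window, Cnp, Prx and Mal, are shown because they let a reader see what sequence surrounds the start of a member that rose (Cnp) and of members whose change did not pass the test (Prx and Mal). The sequences are from RefSeq on GRCm38.p6, each covering 250 bases before and 50 bases from the start site onward. Capitals mark 3 motifs searched on both strands: ACAAAG, a core letter string bound by SOX proteins, GGAATG, bound by TEAD factors, and GCGTGGG, part of the site bound by EGR proteins. No motif overlaps another in these windows.
Cnp, chr11:100574689-100574988, plus strand: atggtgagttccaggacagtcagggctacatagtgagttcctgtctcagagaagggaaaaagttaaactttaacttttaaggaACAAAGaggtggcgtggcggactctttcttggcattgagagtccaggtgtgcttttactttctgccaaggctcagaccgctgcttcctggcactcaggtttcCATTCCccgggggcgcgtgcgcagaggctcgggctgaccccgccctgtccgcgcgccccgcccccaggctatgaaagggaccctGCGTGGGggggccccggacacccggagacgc
Prx, chr7:27499074-27499373, plus strand: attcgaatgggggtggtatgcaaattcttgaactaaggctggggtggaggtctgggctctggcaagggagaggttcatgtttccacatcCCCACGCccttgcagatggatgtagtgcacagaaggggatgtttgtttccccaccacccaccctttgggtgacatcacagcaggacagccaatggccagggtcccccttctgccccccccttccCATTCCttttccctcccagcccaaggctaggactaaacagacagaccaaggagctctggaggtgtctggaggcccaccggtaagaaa
Mal, chr2:127656646-127656945, minus strand: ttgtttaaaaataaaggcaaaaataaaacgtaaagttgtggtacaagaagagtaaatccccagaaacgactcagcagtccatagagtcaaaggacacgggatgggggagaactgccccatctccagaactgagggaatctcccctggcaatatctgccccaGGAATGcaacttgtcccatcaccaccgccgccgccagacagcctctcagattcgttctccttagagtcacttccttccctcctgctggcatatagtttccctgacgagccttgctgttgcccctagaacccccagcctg
The Cnp window holds all 3 motifs, with ACAAAG starting at base -167, the reverse complement of GGAATG at -65 and GCGTGGG at 20, counted from the start site. The Prx window holds GGAATG at -37 and GCGTGGG at -161, both on the opposite strand, and the Mal window holds GGAATG at -89. Over all 32851 windows of the same length, ACAAAG or its reverse complement was found in 18.7%, GGAATG in 14.7% and GCGTGGG in 5.04%, so matches of this kind are common and describe the letters only.

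Cnp and Drp2 rose after oxaliplatin, by 1.38-fold each, and the other 6 members did not pass the test. All 8 log2 fold changes were above 0, with a median of 0.33, against a median of 0.01 over all genes tested, of which 51% had a fold change above 0. The members were chosen with earlier results of these data known and in part vary together between libraries, so this count is not a test. Of all genes tested, 234 (1.27%) passed upward and 142 (0.772%) downward, 2.04% in either direction, and of the 8 members 2 passed upward and 0 downward (edgeR quasi-likelihood test, Benjamini-Hochberg adjustment over all genes, threshold 0.05). At an unadjusted p of 0.05, 4 members were higher and 0 lower, against 8.51% of all genes higher and 7.8% lower (edgeR). DESeq2 also called 2 members higher and 0 lower, against 2.83% and 2.24% of the genes it tested, and limma voom called 2 and 0, against 2.39% and 1.86%. In the call rule that asks only for groups without overlap, 2.25% of all genes tested had every oxaliplatin library above every vehicle library (4.02% when either direction counts), and among the members these were again Cnp and Drp2.

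**Figure D1:**
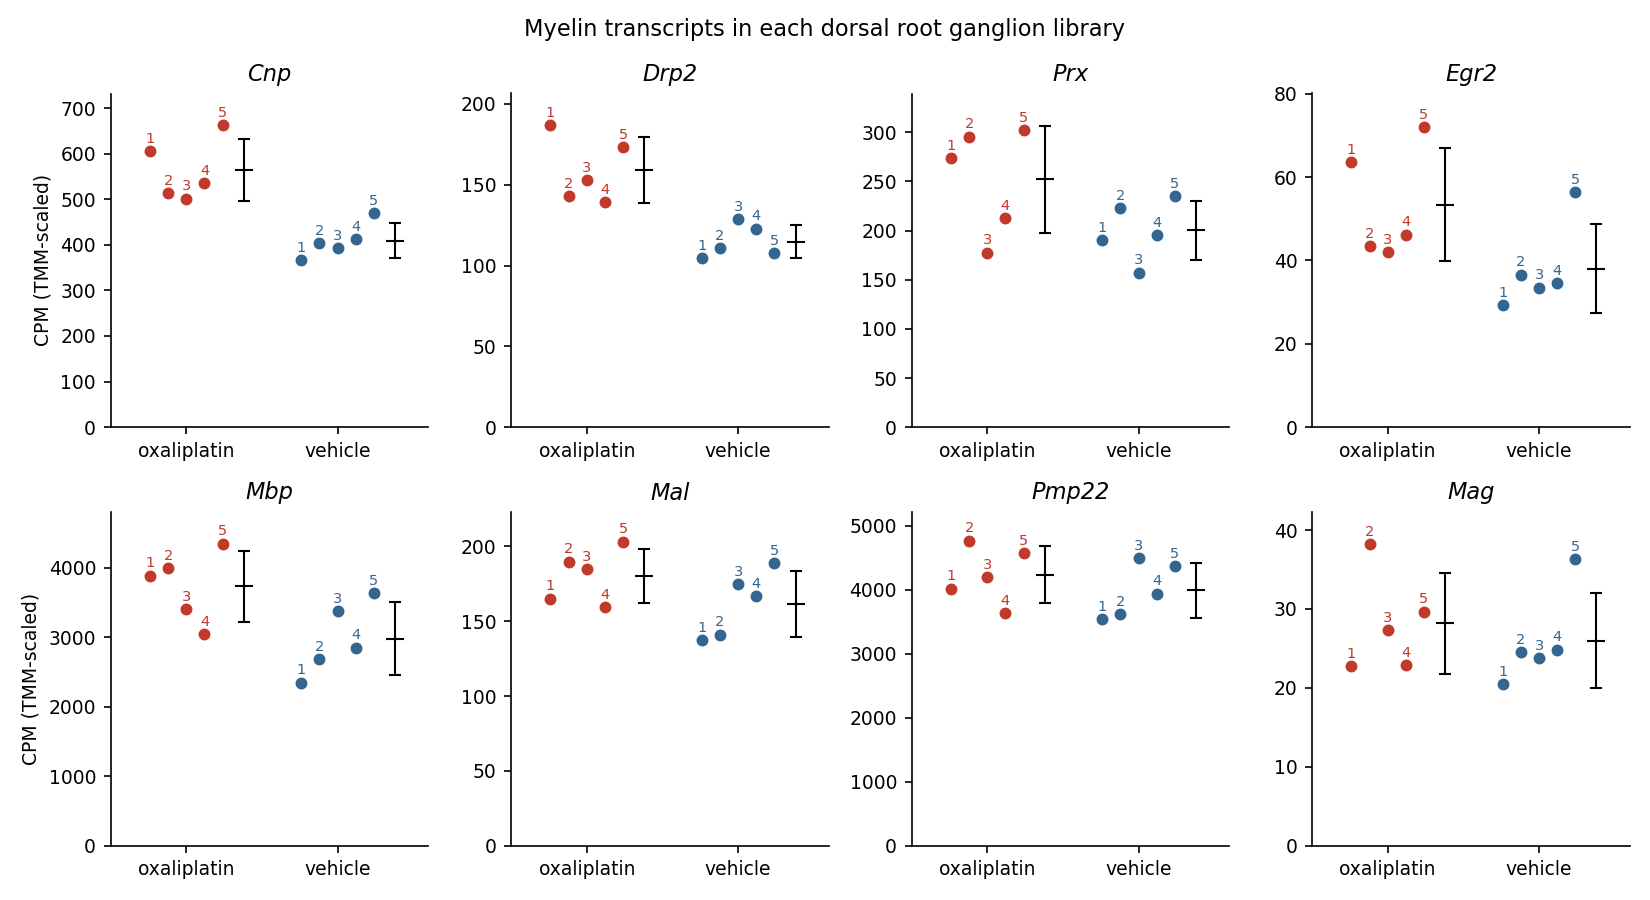
Level of the 8 transcripts in each library, in CPM, that is counts scaled to a common library size, by TMM factors, on linear axes from 0. Points are libraries labelled with their replicate number, and the black mark and bar are the mean and SD of 5 libraries. For Cnp and Drp2 every oxaliplatin library lies above every vehicle library, and for the other 6 transcripts the groups overlap.

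Cnp codes for 2',3'-cyclic-nucleotide 3'-phosphodiesterase, an enzyme that keeps cytoplasmic channels open inside myelin and that oligodendrocytes also make in large amounts. Cnp (ENSMUSG00000006782) had 606, 513, 501, 536 and 663 CPM in oxaliplatin replicates 1 to 5, against 367, 404, 393, 412 and 470 CPM in vehicle replicates 1 to 5. The lowest oxaliplatin library was thus above the highest vehicle library. The mean was 564 ± 68.7 CPM after oxaliplatin and 409 ± 38.1 CPM after vehicle (SD, n = 5 each), a log2 fold change of 0.46 ± 0.08 (SE; edgeR adjusted p = 0.0117). The call held whichever library was left out, with adjusted p up to 0.0404 (edgeR), and in every alternative fit. The counts behind it were 29304 to 39715 reads per oxaliplatin library and 20262 to 25223 per vehicle library, so counting error is small beside the spread between libraries. In GENCODE M21, 4.23% of the exon length of Cnp overlaps exons of Dnajc7, which had 9194 to 11863 counts per library, on the opposite strand, and no label says whether the counting used strand.

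Drp2 codes for dystrophin-related protein 2, which joins periaxin to dystroglycan in the patches where the outer Schwann cell membrane is pressed against the compact myelin. Drp2 (ENSMUSG00000000223) had 187, 143, 153, 139 and 173 CPM in oxaliplatin replicates 1 to 5, against 105, 111, 129, 123 and 108 CPM in vehicle replicates 1 to 5. Again no oxaliplatin library reached down into the vehicle range. The means were 159 ± 20.5 CPM after oxaliplatin and 115 ± 10.4 CPM after vehicle (SD, n = 5 each), and the log2 fold change was 0.47 ± 0.09 (SE; edgeR adjusted p = 0.0119). The highest adjusted p when 1 library was left out was 0.0455 (edgeR), and the call held in every other fit.

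Prx codes for periaxin, the scaffold to which DRP2 binds. Prx (ENSMUSG00000053198) had 274, 296, 178, 213 and 302 CPM in oxaliplatin replicates 1 to 5, against 190, 223, 157, 195 and 235 CPM in vehicle replicates 1 to 5. Oxaliplatin replicates 1, 2 and 5 were above every vehicle library, and replicates 3 and 4 lay inside the vehicle range. The log2 fold change of 0.33 ± 0.16 (SE) did not pass the test (edgeR adjusted p = 0.346). In GENCODE M21, 5.38% of its exon length overlaps the antisense gene Gm15541, which had 230 to 496 counts per library, against 8798 or more for Prx in every library.

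Egr2 codes for the zinc-finger transcription factor, also called KROX20, that starts and maintains the myelin programme. Egr2 (ENSMUSG00000037868) had 63.6, 43.5, 41.9, 46.2 and 71.9 CPM in oxaliplatin replicates 1 to 5, against 29.3, 36.6, 33.4, 34.5 and 56.4 CPM in vehicle replicates 1 to 5. Every oxaliplatin library was above vehicle replicates 1 to 4, and vehicle replicate 5 was above oxaliplatin replicates 2, 3 and 4. The log2 fold change of 0.49 ± 0.21 (SE), the largest of the 8, did not pass (edgeR adjusted p = 0.297). Egr2 also did not pass in DESeq2 (adjusted p = 0.245) or in limma voom, where it came near the threshold (adjusted p = 0.0524). In the fits without 1 library the edgeR adjusted p ran from 0.0875 without vehicle replicate 5 to 0.494 without oxaliplatin replicate 5.

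Mbp codes for myelin basic protein, which zips together the inner faces of the membrane. Mbp (ENSMUSG00000041607) had 3889, 3993, 3401, 3041 and 4348 CPM in oxaliplatin replicates 1 to 5, against 2344, 2686, 3380, 2850 and 3638 CPM in vehicle replicates 1 to 5. Oxaliplatin replicates 1, 2 and 5 were above every vehicle library. The log2 fold change was 0.33 ± 0.13 (SE) and did not pass the test (edgeR adjusted p = 0.247). Mbp also did not pass in DESeq2 (adjusted p = 0.115) or in limma voom (adjusted p = 0.0608).

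The last 3 members had the smallest fold changes. Mal (ENSMUSG00000027375), a small membrane protein that sorts lipids and proteins to myelin, had 165, 190, 185, 159 and 203 CPM in oxaliplatin replicates 1 to 5, against 137, 141, 175, 167 and 189 CPM in vehicle replicates 1 to 5, a log2 fold change of 0.16 ± 0.09 (SE; edgeR adjusted p = 0.420). Pmp22 (ENSMUSG00000018217), the compact myelin protein whose gene dosage underlies a common inherited neuropathy in people, had 4014, 4766, 4195, 3631 and 4568 CPM in oxaliplatin replicates 1 to 5, against 3538, 3621, 4494, 3939 and 4364 CPM in vehicle replicates 1 to 5. Its log2 fold change was 0.09 ± 0.08 (SE; edgeR adjusted p = 0.660), and ran from 0.040 without oxaliplatin replicate 2 to 0.14 without oxaliplatin replicate 4. The groups overlapped widely for both. Mag (ENSMUSG00000036634), the myelin-associated glycoprotein of the membrane next to the axon, had 22.7, 38.2, 27.3, 22.9 and 29.6 CPM in oxaliplatin replicates 1 to 5, against 20.5, 24.6, 23.8, 24.8 and 36.3 CPM in vehicle replicates 1 to 5. Its log2 fold change was 0.12 ± 0.17 (SE; edgeR adjusted p = 0.807), and its sign turned when oxaliplatin replicate 2 was left out (-0.020).

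**Figure D2:**
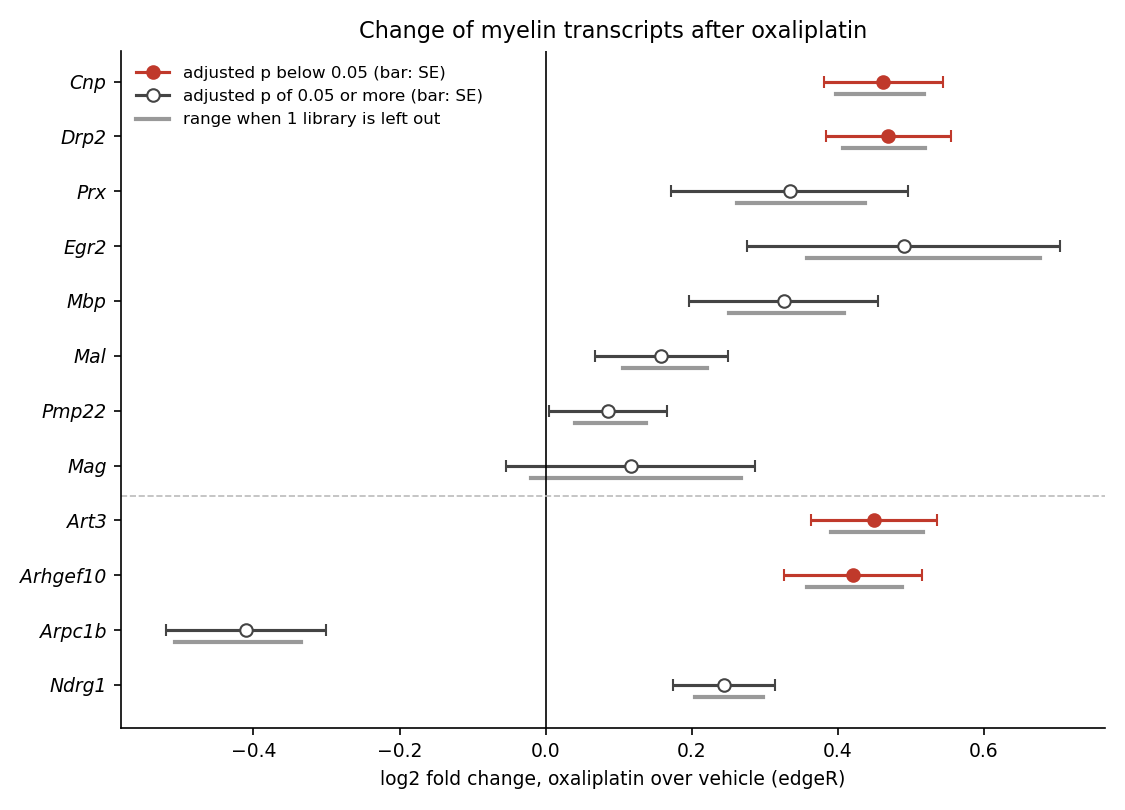
Log2 fold change, oxaliplatin over vehicle, of the 8 members (above the dashed line) and of 4 other myelin-related transcripts (below it), with the SE as a bar and the range over the 10 fits without 1 library as a grey line. Cnp, Drp2, Art3 and Arhgef10 (filled) passed the adjusted p threshold of 0.05, and the grey line crosses 0 for Mag only.

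Per kilobase of exon (GENCODE M21 exon lengths), the members spanned a wide range of levels. Pmp22 stood at 1799 ± 191 CPM per kb after oxaliplatin and 1696 ± 182 after vehicle, Mbp at 441 ± 60.7 and 352 ± 61.9, Cnp at 155 ± 18.9 and 112 ± 10.5, and Mal at 65.0 ± 6.50 and 58.2 ± 7.95 (SD, n = 5 each). Lower in the order came Prx at 45.2 ± 9.78 CPM per kb after oxaliplatin and 35.9 ± 5.46 after vehicle, Drp2 at 18.6 ± 2.39 and 13.4 ± 1.21, Egr2 at 15.7 ± 3.97 and 11.2 ± 3.12, and Mag at 6.92 ± 1.56 and 6.38 ± 1.48. The order of the means was the same in both groups. Neighbours in it did not overlap between libraries, except Drp2 and Egr2 in both groups and Egr2 and Mag in vehicle. The 2 members that rose were thus neither the highest nor the lowest in level. Exon lengths count all annotated exons of a gene, and the isoform in use was not measured.

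Within a group the members were in part high or low in the same libraries. Vehicle replicate 1 was the lowest vehicle library for 7 of the 8 members, all but Prx, and vehicle replicate 5 the highest for 6, all but Drp2 and Pmp22. Oxaliplatin replicate 5 was the highest oxaliplatin library for Cnp, Mbp, Prx, Egr2 and Mal, replicate 2 for Pmp22 and Mag, and replicate 1 for Drp2. Averaged over the 8 members, the centred log2 CPM was 0.20, 0.22, 0.01, -0.05 and 0.37 in oxaliplatin replicates 1 to 5, against -0.37, -0.20, -0.15, -0.16 and 0.12 in vehicle replicates 1 to 5. Vehicle replicate 5 was thus above oxaliplatin replicates 3 and 4 in this mean. Spread within a group was widest for Egr2, with a coefficient of variation of 25.2% after oxaliplatin and 27.9% after vehicle, while Cnp had 12.2% and 9.32%.

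**Figure D3:**
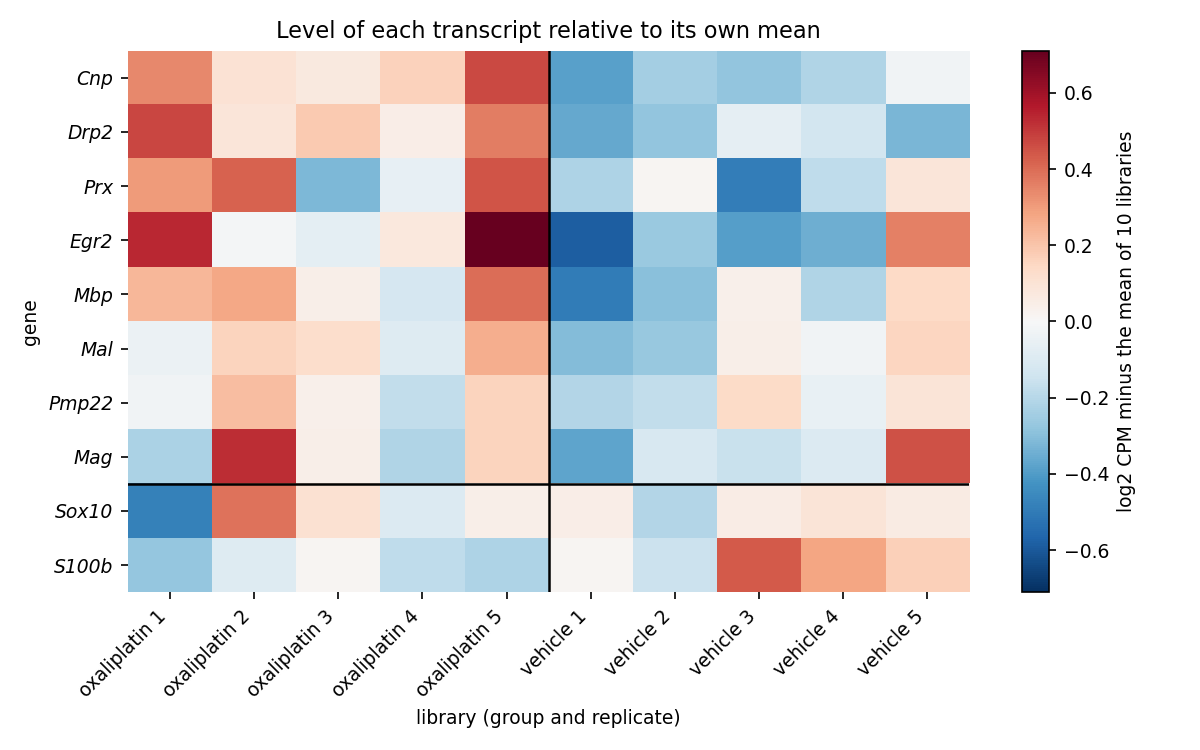
Log2 CPM of each transcript minus its own mean over the 10 libraries, by library, for the 8 members (above the line) and for the Schwann cell identity genes Sox10 and S100b (below it). Cnp is red in all oxaliplatin libraries and Drp2 too, while Sox10, chosen after its values were seen, is highest in oxaliplatin replicate 2.

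The other genes of myelin and of myelinating Schwann cells gave a mixed picture, with 15 log2 fold changes above 0 and 12 below 0. Of 27, all tested, 2 rose and 0 fell, at a median log2 fold change of 0.05, and at an unadjusted p of 0.05 there were 9 higher and 4 lower (edgeR; DESeq2 and limma voom each called 4 higher and 1 lower). Art3, an ADP-ribosyltransferase family member at the cell surface, rose 1.37-fold (log2 0.45 ± 0.09, SE; edgeR adjusted p = 0.0164). It stood at 168, 152, 161, 151 and 186 CPM in oxaliplatin replicates 1 to 5, against 99.7, 109, 140, 128 and 122 CPM in vehicle replicates 1 to 5. It lost the call only without oxaliplatin replicate 5 (0.0538) and without oxaliplatin replicate 1 and vehicle replicate 5 together (0.0602). Arhgef10, a guanine nucleotide exchange factor whose mutation slows nerve conduction in people, rose 1.34-fold (log2 0.42 ± 0.09, SE; edgeR adjusted p = 0.0293), and the call held only without oxaliplatin replicate 2 or 3 or vehicle replicate 5 (up to 0.105 in the other fits without 1 library). Next by p came Arpc1b, a subunit of the actin-branching ARP2/3 complex, at -0.41 ± 0.11, and Ndrg1, at 0.24 ± 0.07, neither past the test (edgeR adjusted p = 0.0828 and 0.0844).

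Periaxin and DRP2 act in a larger complex, whose list had a small median change but calls only upward. Of all genes tested, 1.27% passed upward. Of 16 genes, all tested, 2 rose and 0 fell, at a median of 0.07 (0 lower also at an unadjusted p of 0.05, in DESeq2 and in limma voom, with 5, 2 and 2 higher). Ahnak, a giant scaffold protein that periaxin resembles, rose 1.19-fold (log2 0.25 ± 0.06, SE; edgeR adjusted p = 0.0293), and Itgb4, the laminin-binding integrin chain of the outer Schwann cell surface, rose 1.23-fold (0.30 ± 0.07; edgeR adjusted p = 0.0391). Every oxaliplatin library was above every vehicle library for both, which are among 3 such genes of the 16, against 2.25% of all genes tested. Ahnak kept its call only without oxaliplatin replicate 2 or vehicle replicate 2 or 3, and Itgb4 only without vehicle replicate 2, with adjusted p up to 0.0899 and 0.118 in the fits without 1 library (edgeR). Lamc1, a laminin chain, was at 0.26 ± 0.09 and Utrn, the dystrophin relative utrophin, at 0.16 ± 0.06 (edgeR adjusted p = 0.143 and 0.206).

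The genes listed for Schwann cell identity did not pass the test. How much of their RNA came from other cells of the ganglion, such as satellite glia, was not tested. Of 10, 0 passed in edgeR, at a median log2 fold change of 0.02, with 1 higher and 1 lower at an unadjusted p of 0.05, and DESeq2 called 0 higher and 1 lower and limma voom 0. The calcium-binding protein S100b was at -0.31 ± 0.09, the cadherin Cdh19 at 0.25 ± 0.09, Nrn1l at -0.38 ± 0.22 and the neural crest factor Foxd3 at 0.44 ± 0.32 (SE; edgeR adjusted p = 0.118, 0.173, 0.415 and 0.541). The mean log2 CPM of this list ran from 4.24 to 4.66 after oxaliplatin and from 4.32 to 4.55 after vehicle. Its summed level was 911 to 1060 CPM after oxaliplatin (median 950.1) and 978 to 1302 CPM after vehicle (median 1192), ranges that overlap.

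**Figure D4:**
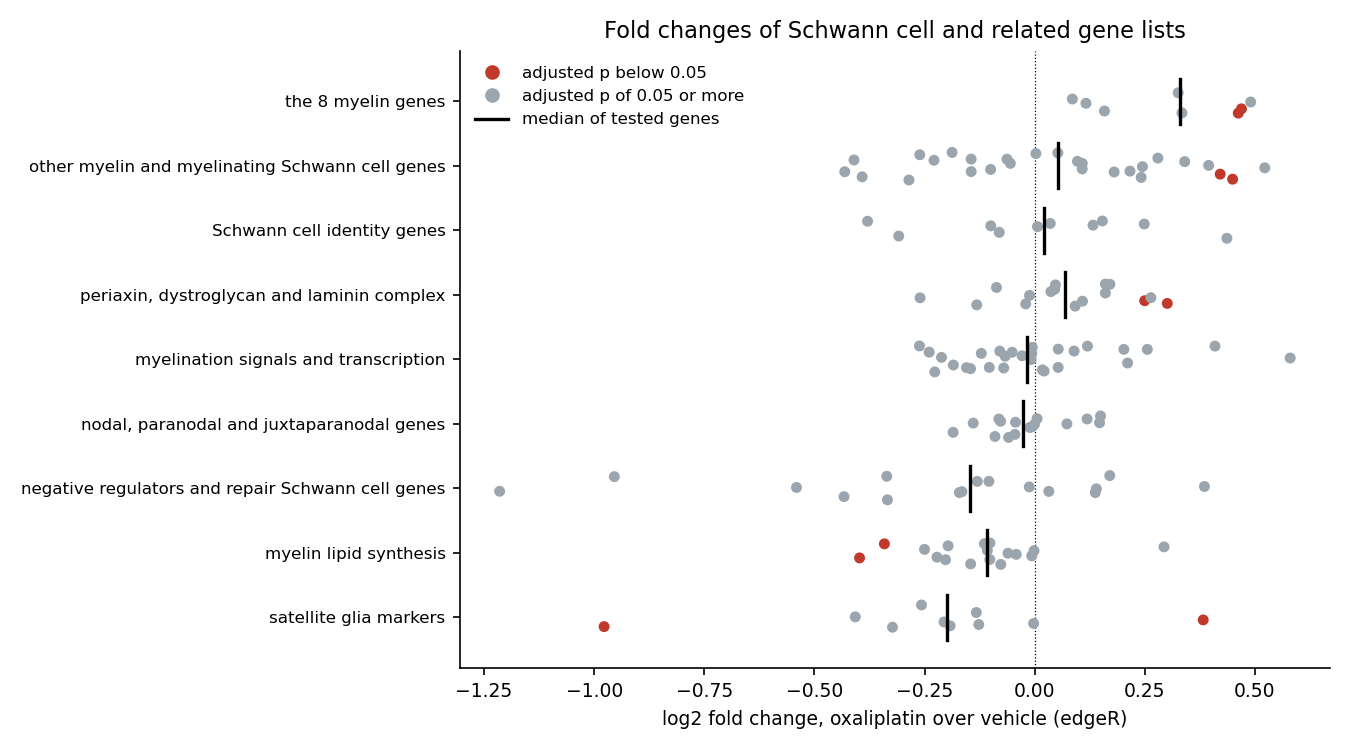
Log2 fold change, oxaliplatin over vehicle, of each tested gene in 9 lists, with genes past the adjusted p threshold of 0.05 in red and the median of each list as a black bar. The 8 myelin genes have a median of 0.33, and the medians of the other 8 lists drawn lie between -0.20 and 0.07. Lists of non-glial cells and of oligodendrocytes are not drawn. Their medians were 2.49 for adipocytes, 1.05 for oligodendrocytes, 0.34 for fibroblasts and perineurium and 0.22 for endothelium. Those of sensory neurons, macrophages and muscle were -0.11, -0.15 and -0.90.

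The signals above the myelin programme did not pass. Of 28 genes for myelination signals and transcription, 0 rose and 0 fell, at a median of -0.02 (edgeR; 1 higher and 2 lower at an unadjusted p of 0.05, 1 and 1 in DESeq2, 0 and 1 in limma voom). Cbx2, a Polycomb chromatin protein, was at 0.58 ± 0.18, the kinase Akt1 at -0.18 ± 0.06, the deacetylase Hdac2 at -0.26 ± 0.10 and Nab1, a corepressor that binds EGR2, at -0.21 ± 0.10 (SE; edgeR adjusted p = 0.114, 0.121, 0.212 and 0.314). Of 20 negative regulators and repair Schwann cell genes 16 were tested and 0 passed, at a median of -0.15 (edgeR; 1 higher and 2 lower at an unadjusted p of 0.05, and 0 in DESeq2 and in limma voom). Egr3, a relative of EGR2, was at -1.21 ± 0.42 and the adhesion molecule Ncam1 at 0.14 ± 0.05 (edgeR adjusted p = 0.149 and 0.187). The level of Egr3 was near the floor, at 0.117 to 0.308 CPM in the oxaliplatin libraries. Genes of the nodes of Ranvier and the flanking axon-glia junctions had 0 of 16 past the test, at a median of -0.03 (edgeR; 0 at an unadjusted p of 0.05, in DESeq2 and in limma voom), led by the spectrin Sptan1 at 0.15 ± 0.08 and the band 4.1 protein Epb41l2 at 0.15 ± 0.08 (edgeR adjusted p = 0.354 and 0.387).

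Lipid synthesis, which supplies the myelin membrane, leaned the other way. Of 17 genes 0 rose and 2 fell, at a median of -0.11, with 16 of the 17 fold changes below 0 (edgeR; 1 higher and 7 lower at an unadjusted p of 0.05, 1 and 2 in DESeq2, 0 and 3 in limma voom). Of all genes tested, 0.772% passed downward and 7.8% were lower at an unadjusted p of 0.05 (edgeR). Over the same genes 51% had a fold change above 0. The list was chosen with earlier results of these data known, so the count of directions is not a test. Sqle, squalene epoxidase of the cholesterol pathway, fell by 0.34 ± 0.07 on the log2 scale, and Elovl6, which lengthens fatty acids, fell by 0.40 ± 0.09 (SE; edgeR adjusted p = 0.0164 and 0.0260). Sqle lost its call without oxaliplatin replicate 1, 4 or 5 or vehicle replicate 4, and Elovl6 kept its own only without oxaliplatin replicate 2 or vehicle replicate 3 or 5 (up to 0.0681 and 0.0984, edgeR). Sgms1, which makes sphingomyelin, was at 0.29 ± 0.09 and Hmgcs1, an early enzyme of the cholesterol pathway, at -0.20 ± 0.06 (edgeR adjusted p = 0.0902 and 0.0962). These enzymes are made in many cell types of the ganglion.

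Oligodendrocytes, the myelin cells of the central nervous system, also make Cnp, Mbp, Mag and Mal, so their markers were read beside the members. Of 8 markers 3 had enough counts to be tested and 0 passed, at a median of 1.05 (edgeR; 2 higher and 0 lower at an unadjusted p of 0.05, and 0 in DESeq2 and in limma voom). Mobp, a basic protein of central myelin, had 10.1, 8.72, 22.2, 26.9 and 19.8 CPM in oxaliplatin replicates 1 to 5, against 10.8, 8.95, 4.81, 9.32 and 8.41 CPM in vehicle replicates 1 to 5 (log2 fold change 1.05 ± 0.35, SE; edgeR adjusted p = 0.182). Mog had 0.290 to 1.37 CPM after oxaliplatin and 0.0340 to 0.391 CPM after vehicle (1.53 ± 0.54; edgeR adjusted p = 0.162), and Myrf, the transcription factor of that lineage, was at 0.02 ± 0.20 (edgeR adjusted p = 0.980). Summed over the 8 markers the level was 11.6 to 31.6 CPM after oxaliplatin and 8.10 to 13.7 CPM after vehicle. Opalin had 0 to 14 counts per library in both groups, and Hapln2 had 0 to 10 counts after oxaliplatin and 0 to 8 after vehicle. Mobp lay within the vehicle range in oxaliplatin replicates 1 and 2 and above it in replicates 3, 4 and 5. Cnp was above every vehicle library in each oxaliplatin library. Without oxaliplatin replicate 4, where Mobp and Mog were highest, the log2 fold change of Mog was 0.97, that of Mobp 0.85, that of Cnp 0.48 and that of Drp2 0.52. Oxaliplatin replicates 3 and 5, with Mobp at 22.2 and 19.8 CPM, stayed in that fit. The part of oligodendrocyte RNA in the change of the members was not tested.

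**Figure D5:**
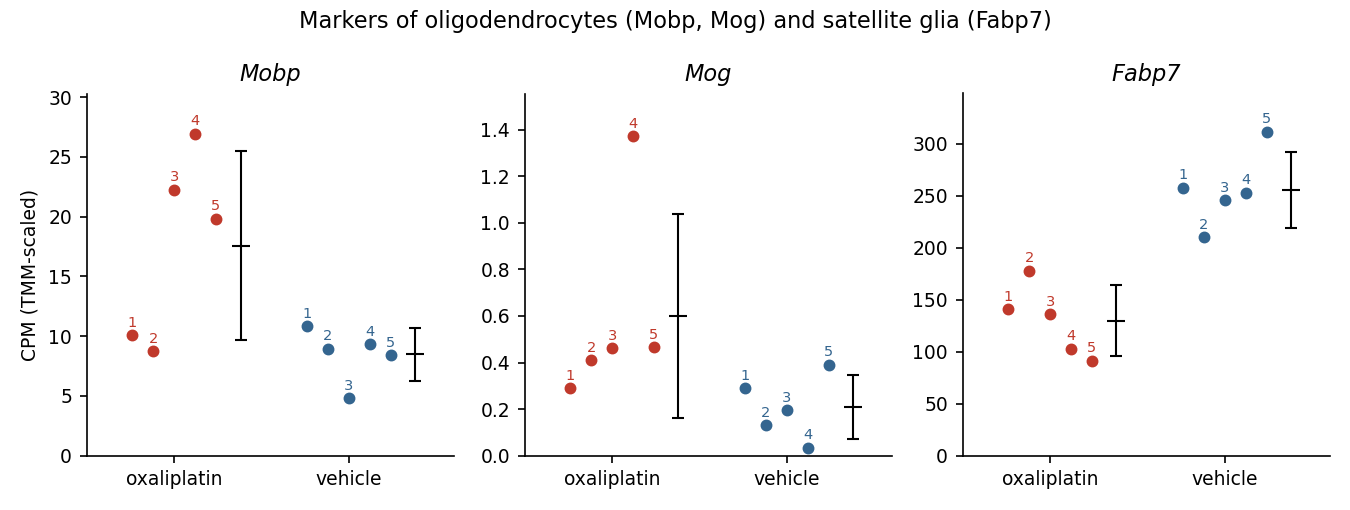
Mobp and Mog, markers of oligodendrocytes, and Fabp7, a marker of satellite glia, in CPM per library with the replicate number, and the mean and SD of 5 libraries in black. Mobp is above the vehicle range in oxaliplatin replicates 3, 4 and 5, and no oxaliplatin library reaches the vehicle range of Fabp7.

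Satellite glia markers had 1 gene higher and 1 lower of 10, at a median of -0.20, with 9 of the 10 fold changes below 0 (edgeR). At an unadjusted p of 0.05 there were 1 higher and 3 lower (edgeR), and 1 and 2 were called in DESeq2 and 1 and 1 in limma voom. Of all genes tested, 1.27% passed upward and 0.772% downward (edgeR). Fabp7, a fatty acid binding protein, fell to 91.3 to 178 CPM after oxaliplatin, against 210 to 312 CPM after vehicle (log2 -0.98 ± 0.18, SE; edgeR adjusted p = 0.0298), and Glul, glutamine synthetase, rose 1.30-fold (0.38 ± 0.08; edgeR adjusted p = 0.0223). Fabp7 kept its call only without oxaliplatin replicate 2 or 5 or vehicle replicate 2 and Glul lost its own when replicate 4 or 5 of oxaliplatin, or 1 or 4 of vehicle, was left out (up to 0.0779 and 0.0733, edgeR), and Fabp7 was at 0.141 with the replicate number as a block. The potassium channel Kcnj10 was at -0.41 ± 0.13 and the connexin Gja1 at -0.21 ± 0.10 (edgeR adjusted p = 0.121 and 0.298).

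Markers of other cells in the ganglion also differed between groups. Of 10 sensory neuron markers, with a median of -0.11, 0 rose and 3 fell (edgeR; 0 higher and 5 lower at an unadjusted p of 0.05, 0 and 3 in DESeq2 and in limma voom), the neurofilament genes Nefl (log2 -0.51 ± 0.07), Nefm (-0.58 ± 0.09) and Nefh (-0.63 ± 0.13), with edgeR adjusted p of 0.0022, 0.0056 and 0.0400, while Tubb3 was at -0.20 ± 0.06 (0.113). Neurofilament transcripts are most abundant in the large neurons whose axons carry myelin. The level summed over all 10 neuron markers was 18659 to 21555 CPM after oxaliplatin and 21838 to 25851 CPM after vehicle. Of 6 endothelial markers, with a median of 0.22, 2 rose and 0 fell, Pecam1 (0.98 ± 0.18) and Cdh5 (0.69 ± 0.17), with 3 higher at an unadjusted p of 0.05 (edgeR) and 2 in DESeq2 and in limma voom. The 8 fibroblast and perineurium markers had a median of 0.34, as high as that of the myelin genes, with 5 higher and 0 lower at an unadjusted p of 0.05 (edgeR), 4 and 0 in DESeq2 and 5 and 0 in limma voom. In edgeR after adjustment 2 of them rose, Pdgfra (0.62 ± 0.14) and Itgb4, which the perineurium shares with Schwann cells. Of these calls, Nefl and Nefm held in all 10 fits without 1 library, Pecam1 was lost without oxaliplatin replicate 4 (edgeR adjusted p = 0.0504), and Nefh, Cdh5 and Pdgfra each held in 3 of the 10 (up to 0.0924, 0.147 and 0.0858, edgeR). Nefh held without oxaliplatin replicate 2 or 3 or vehicle replicate 2, and Cdh5 and Pdgfra held without oxaliplatin replicate 2 or vehicle replicate 2 or 5. Macrophage markers had 0 of 6 past the test, at a median of -0.15 (edgeR; 0 higher and 2 lower at an unadjusted p of 0.05, and in DESeq2, and 0 in limma voom), led by Aif1 at -1.40 ± 0.34 (edgeR adjusted p = 0.0537). Adipocyte and muscle RNA was high in oxaliplatin replicate 1, where the summed markers stood at 1028 and 722 CPM, against at most 70.3 and 24.6 CPM in the other oxaliplatin libraries, while vehicle libraries ran from 24.5 to 69.8 and from 98.1 to 488 CPM. Of 7 adipocyte markers 5 were tested, at a median of 2.49, and 0 passed (edgeR; 2 higher and 0 lower at an unadjusted p of 0.05, 1 and 0 in DESeq2, 0 in limma voom), and of 6 muscle markers, at a median of -0.90, 0 passed (edgeR; 0 at an unadjusted p of 0.05 and in DESeq2, 0 higher and 3 lower in limma voom). The adipocyte gene Cfd was at 3.29 ± 1.26 and the muscle gene Myh4 at -1.83 ± 1.41 (SE; edgeR adjusted p = 0.247 and 0.590). Without oxaliplatin replicate 1 alone, Cnp was at 0.44 and Drp2 at 0.41, and both calls held (edgeR). With vehicle replicate 5 left out as well, Cnp was at 0.49 and Drp2 at 0.38 (edgeR adjusted p = 0.00979 and 0.0363). Vehicle replicate 5 had the lowest adipocyte and muscle sums of the vehicle libraries and the highest Cnp level among them. The part of these cell types in the change of the myelin genes was not tested beyond these values.

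The genes nearest in pattern to the 8 members, by the root mean square difference between centred log2 CPM and the members' mean over the 10 libraries, were Sorbs3 (0.07), Zfyve21 (0.09), Dgka (0.09), Lhfp (0.10), Cd81 (0.10) and Col4a1 (0.10), out of 13131 genes with a mean of at least 2 CPM. Sorbs3, which codes for the adhesion adaptor vinexin, had 53.6 to 72.9 CPM after oxaliplatin and 39.6 to 55.0 CPM after vehicle. Its log2 fold change of 0.36 ± 0.09 (SE) missed the threshold (edgeR adjusted p = 0.0578), as did those of the other 5, between 0.13 and 0.27. Among the members themselves Mbp lay closest to their mean (0.08), followed by Cnp (0.12) and Mal (0.12), and Egr2 lay farthest (0.23). The mean includes these members, so their distances are smaller for that reason.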

How the data were processed

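RNA of mouse dorsal root ganglia was measured in 10 libraries, 5 from mice given oxaliplatin and 5 given vehicle, grouped by the labels' titles. The values are the authors' deposited raw counts of reads by Ensembl gene. The tools listed in the submitters' processing notes, without their roles, are STAR 2.5.1a, Partek and DESeq2. For the genome build, counting step and strand, nothing was given in the sources used here. Repeated rows with identical counts (276) were dropped and 26 symbols that had become dates were looked up by ID. Library totals ran from 52963470 to 60984426 counts. Library pairs within a group had chi-square values over genes of 12.0 to 49.3 times their degrees of freedom and were kept as separate samples.

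The comparison was fitted over all genes with edgeR 4.0.16 under R 4.3.3 (filterByExpr, TMM, robust quasi-likelihood, no covariates, Benjamini-Hochberg adjustment, threshold 0.05). The SE was taken as the fitted log2 change over the square root of F. CPM used effective (TMM) library sizes, with a prior count of 2 for log2 CPM. The steps were tested on simulated counts with fold changes larger than those of the members, which does not test changes as small as theirs. Alternatives were RLE factors, no composition factor, no filter or a filter of 1 CPM in 5 libraries, DESeq2 1.42.0, limma 3.58.1 voom with quality weights, the replicate block, the Schwann cell identity mean as a covariate, a threshold of 0.1 and leaving out libraries. Named were the 8 members, up to 4 genes of smallest p from each of 15 other lists and the 6 genes nearest in pattern. One other myelin gene is not reported here. The members and lists were chosen with earlier results of these data known. Exon lengths and overlaps are from GENCODE M21, without coordinates. Promoters are from RefSeq, where 6 of the 8 members had windows, of which 3 had 1.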

Additional observations from a re-analysis of the deposited data

Results flagged for a closer look

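Of 110 groups of 5 libraries tested (named genes, each in both groups), 12 held a library far from the others by Dixon's ratio (above 0.71), where chance flags about 1 in 20. Among the members, vehicle replicate 5 stood apart at 56.4 CPM for Egr2 (others 29.3 to 36.6 CPM) and at 36.3 CPM for Mag (others 20.5 to 24.8 CPM). The same library stood apart for Dgka (19.5 CPM, others 14.5 to 15.6) and Cd81 (386 CPM, others 305 to 317). Both were named for their nearness to the members in pattern, so this follows in part from that choice. The 12 flagged groups are thus not independent of each other. Oxaliplatin replicate 5 stood apart for Arhgef10 (50.3 CPM, others 39.9 to 42.6), and oxaliplatin replicate 3 for Cdh19 (47.1 CPM, others 39.1 to 40.8) and Egr3 (0.308 CPM, others 0.117 to 0.162). Oxaliplatin replicate 2 was high in both lipid synthesis genes that fell, Sqle (364 CPM, others 302 to 308) and Elovl6 (113 CPM, others 80.0 to 84.8). Oxaliplatin replicate 4 was high in Mog (1.37 CPM, others 0.290 to 0.467), and oxaliplatin replicate 1 in Cfd (457 CPM, others 9.93 to 29.3) and Myh4 (45.3 CPM, others 0.496 to 1.02).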

How the results depend on the processing

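The count of members past the threshold was 2 in the alternatives run, and 2 in each of the 10 fits without 1 library, except that it was 3 with the replicate number as a block, where Prx also passed (log2 fold change 0.32, edgeR adjusted p = 0.0113). Same-numbered libraries correlated at -0.04 to 0.21 in their deviations, above 0.1 in 2 of 5 pairs, and since not every pair was above it the numbers were not taken to pair the samples. That 6 of 10 libraries correlated best with their own number is a hint from the data towards pairing, not from the design. Of 152 refits of single members, 150 kept direction and side of the threshold, 1 gained a call (Prx) and 1 reversed (Mag, -0.020 without oxaliplatin replicate 2, and -0.020 to 0.27 over the fits without 1 library). Myrf ranged from -0.12 to 0.097 and turned below 0 when replicate 1 or 3 of oxaliplatin, or 1 or 2 of vehicle, was left out.

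The count over all genes (234 higher, 142 lower) was 514 and 408 in DESeq2, 439 and 342 in limma voom, 382 and 278 with the replicate block, 288 and 214 with the Schwann cell covariate, 424 and 304 at a threshold of 0.1, and 142 and 76 when oxaliplatin replicate 1 and vehicle replicate 5 were dropped together. Leaving out 1 library gave 79 to 343 higher and 34 to 251 lower, and moved a count by over 1.5 times without oxaliplatin replicate 1 (147 and 74), 2 (343 and 251), 4 (79 and 34) or 5 (80 and 38), or vehicle replicate 1 (117 and 77), 4 (82 and 41) or 5 (198 and 88). Higher calls made up 62.2% of calls, or 75.4% without a composition factor. The causes were not tested. With 5 libraries a group, changes as small as those of Mal or Pmp22 were not detectable beyond the spread, which does not show that they are absent.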
